A study of Mus musculus with 9 samples.

Results

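The genes described here encode the proteasome, its assembly chaperones, its activators and its inhibitor. They were taken by name: every gene whose symbol starts with Psma, Psmb, Psmc, Psmd, Psme, Psmf or Psmg followed by a digit, with names holding -ps left out, of which there were 0. The rule took 48 of the 11206 genes listed in at least 1 library. By their known roles, 7 encode the alpha ring of the core, 7 its beta ring, 3 the immunoproteasome subunits, 6 the ATPases of the base, 3 the other base subunits, 8 the lid, 7 assembly chaperones and 5 activators or an inhibitor. The other 2 are Psme2b, a retrocopy of Psme2, and Psmc3ip, a meiotic recombination factor that is not a proteasome subunit. Of the 50 protein-coding genes that the rule takes in the GENCODE M21 annotation, 2 had no row in any library: Psma8, an alpha subunit of the testis, and Psmb11, a beta subunit of the thymus.

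The proteasome degrades proteins that carry a ubiquitin chain. Its core is a barrel of stacked rings, in which alpha subunits form the gate and the beta subunits Psmb5, Psmb6 and Psmb7 cut the substrate inside. The regulatory particle caps the barrel: the base unfolds the substrate with a ring of ATPases, and the lid removes ubiquitin. In immune cells, and in other cells exposed to interferon, Psmb8, Psmb9 and Psmb10 replace Psmb5, Psmb6 and Psmb7, and the resulting immunoproteasome cuts peptides for presentation on MHC class I. The secretory cells of the lactating mammary gland make large amounts of protein, and milk fat globules are budded from these cells wrapped in plasma membrane, with some cytoplasm and its RNA trapped inside.

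The 9 libraries were total RNA from the milk fat of 9 first-time mothers of the outbred ICR (CD1) mouse stock, taken on day 10 of lactation, 1 library per dam. A high fat diet (n = 4) gave 60% of its energy as fat and 5.24 kcal per gram, and a control diet (n = 5) gave 10% and 3.85 kcal per gram, with 7% of energy from sucrose in both. Feeding began at 4 weeks of age, lasted 4 weeks before mating and went on through pregnancy and lactation; dams were housed in pairs within a diet before mating, and cage mates are not identified. The skimmed fat was spun again in saline to clear trapped cells, so the RNA is that of the fat layer and not of the gland.

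Levels are the authors' FPKM, fragment counts scaled for transcript length and library size, so that genes can be compared per length. The tables list a gene only above 1 FPKM, and a gene without a row is called unlisted here; values are given in the order of the replicate numbers. High fat library 3 stood apart from the other 8. It listed 2075 genes, against 4986 to 7974 in the other 3 of its diet and 7098 to 8903 in the 5 control libraries. The precision implied by the deposited confidence bounds of FPKM corresponded to a median of 7.64 fragments per listed gene in that library, against 13 to 28.6 in the other 3 of its diet and 20.0 to 41.1 in the control libraries. Of 7 markers of secretory mammary epithelium, 7 were listed in each library but this one, which listed 6, and basal epithelial markers were listed for 0 to 2 of 3 genes. The 7 secretory markers summed to 17567, 4108, 5881 and 10119 FPKM in the high fat libraries, against 19126, 9550, 18210, 19237 and 19394 FPKM in the control libraries.

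The median member, with unlisted genes at 0, ranked among all genes at percentiles 85.7, 87.1, 81.5 and 81.4 in the high fat libraries and 85.8, 83.2, 85.3, 86.8 and 81.8 in the control libraries. In high fat library 3 the median member lay between a listed and an unlisted gene, so its percentile follows from the share of unlisted genes in that library. The members listed numbered 46, 43, 24 and 35 in the high fat libraries, against 47, 43, 45, 45 and 43 in the control libraries. All 9 libraries listed 23 of the 48 genes, and all 5 control libraries listed 43. The summed FPKM of the members was 615, 412, 55.6 and 187 in the high fat libraries, against 1053, 315, 744, 955 and 495 in the control libraries. The libraries of the 2 diets overlapped in this sum, since control library 2 lay below high fat libraries 1 and 2.

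**Figure D1:**
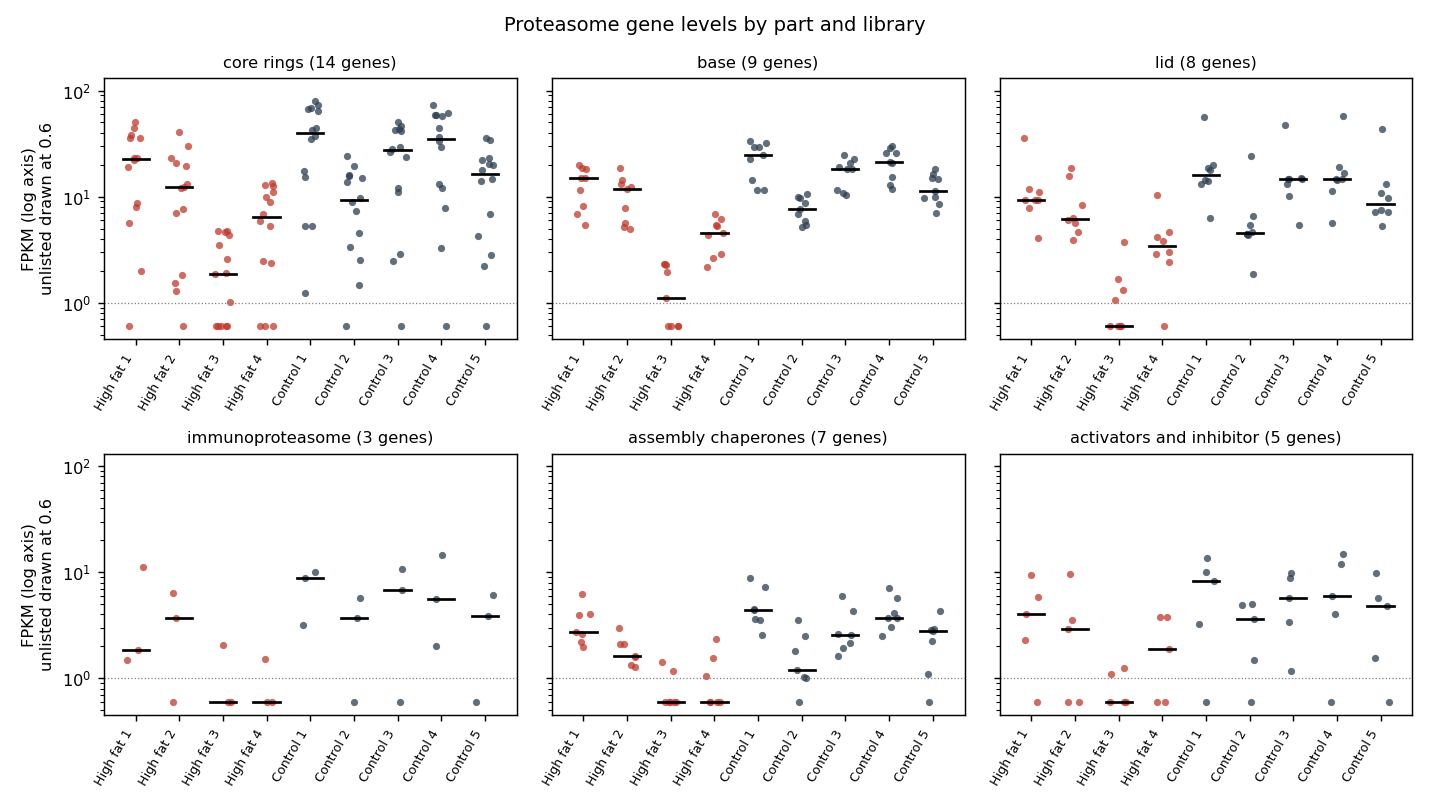
FPKM (log axis) of each proteasome gene in each library, by role; points are genes, bars are the median gene of the library, and unlisted genes are drawn at 0.6, below the dotted line at 1 FPKM. Core medians were 22.7, 12.2, 1.88 and 6.40 FPKM in the high fat libraries, against 39.9, 9.28, 27.3, 35.2 and 16.3 FPKM in the control libraries. High fat library 3 has the lowest summed FPKM in every panel but that of the immunoproteasome. There high fat library 4 is lower, at 1.52 against 2.05 FPKM.

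The diet comparison asks which of these transcripts differed in milk fat after a high fat diet. It used limma on log2(FPKM + 1) over the 7983 genes that reached 1 FPKM in at least 4 libraries, with unlisted genes at 0 and Benjamini-Hochberg adjustment over all of them. Of 44 members tested, 2 passed an adjusted p of 0.05, both lower on the high fat diet: Psmd3, a structural subunit of the lid, and Psmf1, the inhibitor of the core. None were higher, and by an unadjusted p under 0.05, 21 were lower and 0 higher. The background was larger than this share: 20.8% of all tested genes were called lower and 0% higher, and by the unadjusted p 49.5% were lower and 0.0626% higher. All 44 fold changes were negative as deposited, but 6 turned positive under median-of-ratios scaling, 14 under quantile normalization and 35 with a covariate for the number of listed genes per library. The median log2 fold change was -1.29 over the members and -1.08 over all tested genes, a difference of -0.21. This difference turned positive at a pseudocount of 0.1 (0.43), under median-of-ratios scaling (0.24), with the covariate (0.23) and with libraries scaled to 1 sum (0.054). The median over all genes was -0.55 under median-of-ratios scaling and 0.03 under quantile normalization. FPKM are scaled for library size, so they give no amount of RNA per library. A smaller share of globules or cells of a type and less of a transcript in each cannot be told apart in such bulk samples.

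Only Psmd1, a scaffold subunit of the base, had every high fat diet value below every control diet value; 11.1% of all tested genes did. Both calls depended on single libraries. Leaving out any one of high fat libraries 2, 3 and 4 or of control libraries 1, 3, 4 and 5 left 0 members called, leaving out control library 2 gave 5, and leaving out high fat library 1 gave 30. Library 1 was the high fat library of the highest summed proteasome level.

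**Figure D2:**
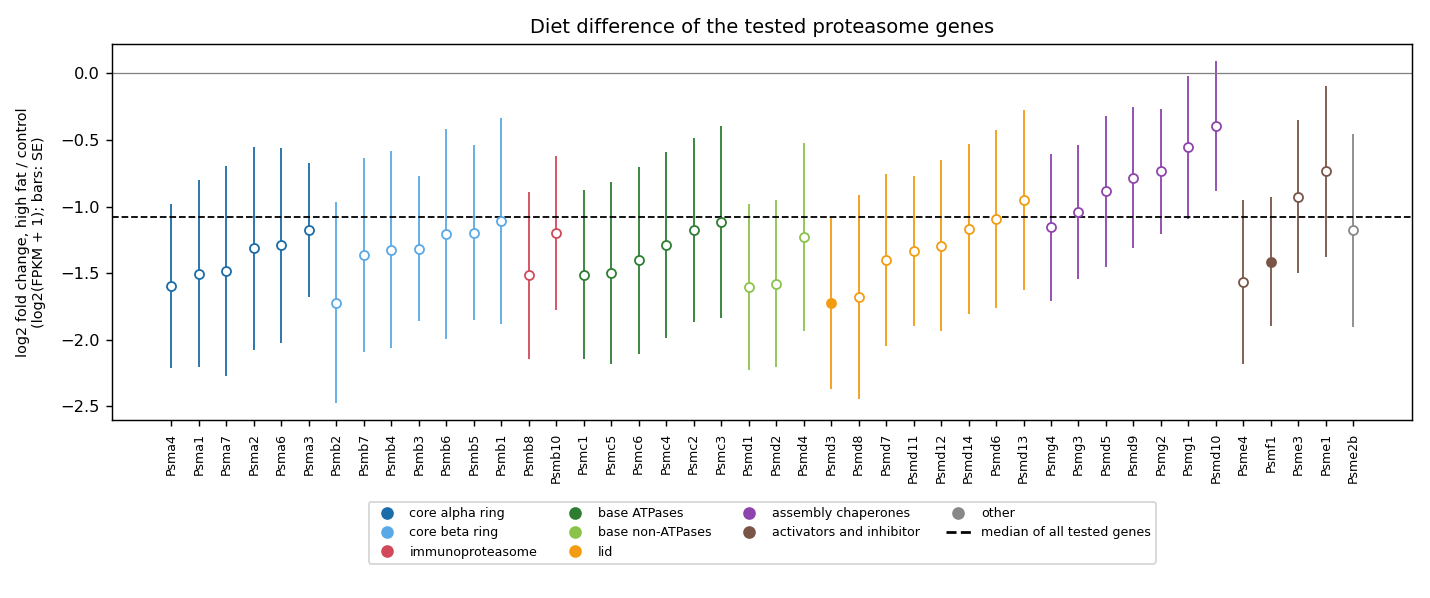
log2 fold change, high fat diet over control diet, of the 44 tested proteasome genes by role, with the standard error as bars; filled points passed the adjusted p of 0.05 and the dashed line is the median of all tested genes at -1.08. All 44 points lie below 0, though 6 turn positive under median-of-ratios scaling, 14 under quantile normalization and 35 with a covariate for the number of listed genes, and the median of the 7 assembly chaperones is -0.78.

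Several of these genes have near-identical copies elsewhere in the genome, and gene and copy have separate deposited levels. How reads that match both were assigned is not stated in the sources used. A copy was taken as a GENCODE M21 gene with at least 95% identity over at least 500 bases of a member's transcript. Besides Psme2b, itself a copy of Psme2, such copies were listed in at least 1 library for 9 members, Psma3, Psma4, Psma5, Psmb3, Psmb5, Psmc1, Psmd2, Psmd11 and Psme2. Psme2, the beta subunit of the interferon-inducible activator (chr14:55587441-55591113), was listed in 1 library only, control library 3 at 1.17 FPKM. Its intronless copy Psme2b (chr11:48945354-48946190, minus strand), 99.4% identical over 794 bases, had 21.1, 19.5, 1.71 and 7.395 FPKM in the high fat libraries, against 34.9, 11.8, 24.8, 32.1 and 14.8 FPKM in the control libraries. Reads from Psme2 and Psme2b can therefore hardly be told apart. Their most different coding stretch of 120 bases is shown for this reason, bases 622 to 741 of the Psme2 transcript and bases 496 to 615 of the Psme2b transcript in GENCODE M21, with the 3 differing bases in capitals:
Psme2: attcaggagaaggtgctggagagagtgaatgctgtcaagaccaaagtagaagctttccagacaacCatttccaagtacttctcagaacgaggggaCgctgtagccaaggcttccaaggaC
Psme2b: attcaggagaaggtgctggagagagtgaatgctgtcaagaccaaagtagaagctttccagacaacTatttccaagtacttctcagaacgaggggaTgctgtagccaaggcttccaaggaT

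Psmb5, the constitutive chymotrypsin-like subunit, shares its sequence with the processed pseudogene Gm3375 (chr7:3181093-3181888), 98.9% identical over 796 bases. Gm3375 was listed at 14.6, 10.9, 1.34 and 4.45 FPKM in the high fat libraries, against 26.1, 4.502, 16.2, 23.05 and 9.04 FPKM in the control libraries. The copy held more of the sum than the gene in 8 of 9 libraries, since only high fat library 2 had a Psmb5 share above that of the copy, at 52.5% of the sum. The corresponding stretch, bases 299 to 418 of the Psmb5 transcript and 269 to 388 of Gm3375, also holds 3 differences, in capitals:
Psmb5: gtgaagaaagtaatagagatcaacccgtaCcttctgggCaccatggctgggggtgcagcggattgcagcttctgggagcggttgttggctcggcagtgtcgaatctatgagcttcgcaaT
Gm3375: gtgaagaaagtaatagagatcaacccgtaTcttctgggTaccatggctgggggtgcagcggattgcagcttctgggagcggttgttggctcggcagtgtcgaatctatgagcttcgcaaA

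The alpha ring genes Psma3 and Psma5 also held small shares. Psma3 held 6.03% of the sum over Psma3 and its copies. The pseudogene Gm13835 on chromosome 6, 100% identical over 665 bases, had 30.1, 16.4, 2.898 and 11.9 FPKM in the high fat libraries, against 70.7, 18.9, 43.4, 61.9 and 27.6 FPKM in the control libraries. Psma5 held 1.46% of its sum, and was listed in control library 1 only, at 1.24 FPKM. Its copies were Gm8394 on chromosome 10, 98.6% identical over 952 bases, and Gm12989 on chromosome 4, 97.5% identical. The Psma5 sum was 0 to 9.82 FPKM in the high fat libraries and 4.05 to 20.4 FPKM in the control libraries. The low listed levels of Psma3, Psma5 and Psme2 are thus levels of the gene without its copies. The other shares were 32.3% for Psmb3 with Gm4950, 40.6% for Psmb5, 53.3% for Psma4 with Gm6542, 54.9% for Psmd11 with Gm14048, 86.4% for Psmc1 with Gm9575 and 93.4% for Psmd2 with Gm5422. With the copies added before the log, an alternative chosen after seeing the data, 4 of 46 members were lower, which added Psma4 (adjusted p = 0.0457) and Psmd2 (adjusted p = 0.0474, limma) to Psmd3 and Psmf1.

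**Figure D3:**
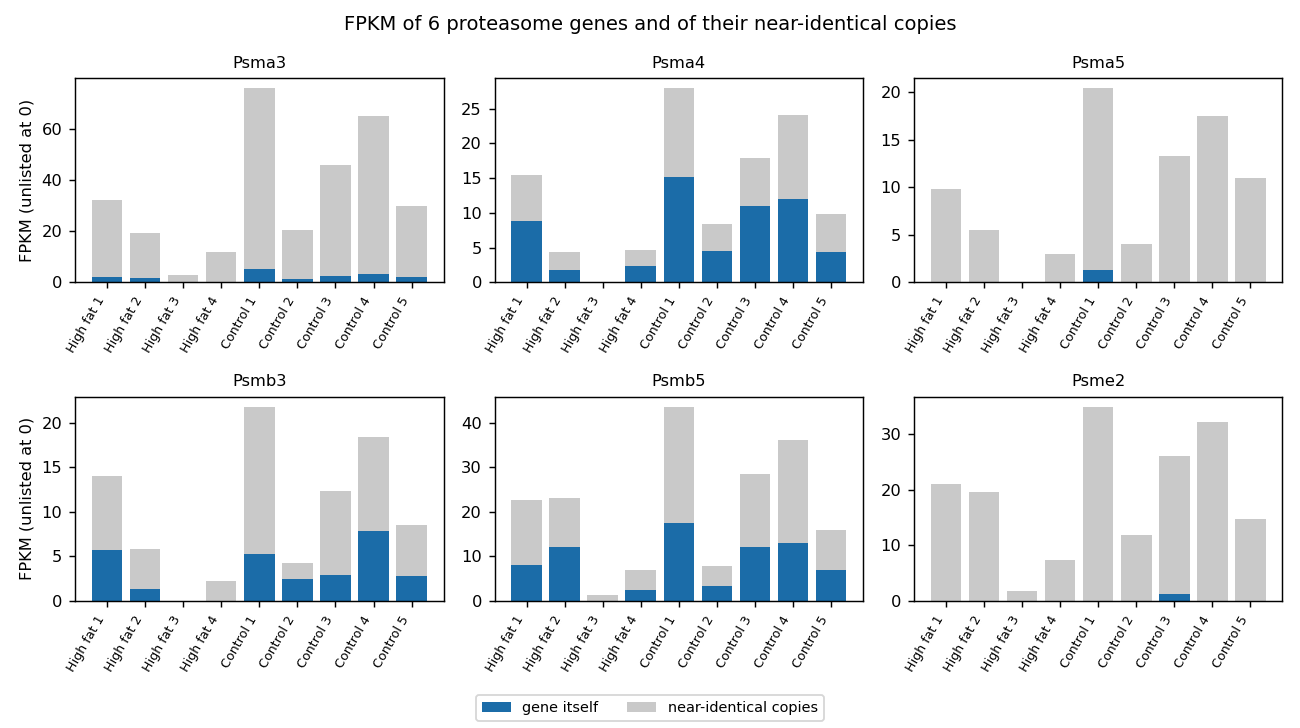
FPKM of 6 proteasome genes (blue) and of their near-identical copies (grey) stacked for each library, unlisted values at 0, on linear axes that start at 0. The copies make up nearly the whole bar for Psma3, Psma5 and Psme2, whose own shares over all libraries are 6.03%, 1.46% and 0.691%.

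The alpha ring, which forms the gate of the core, was listed for 6 of 7 genes in the control libraries 2 to 5 and for all 7 in control library 1. None of the 6 tested genes passed the adjusted threshold, and 3 were lower by the unadjusted p, beside 49.5% of all tested genes. Their median log2 fold change was -1.40, against -1.08 over all tested genes. Psma7 was the most abundant of the ring, with 50.9998, 23.2, 4.71 and 11.1 FPKM in the high fat libraries, against 79.3, 24.3, 46.1, 72.6 and 35.4 FPKM in the control libraries. High fat library 1 lay above 3 of the 5 control libraries for this gene, and the difference did not pass (log2 fold change -1.48, SE 0.79, limma adjusted p = 0.114). Psma4 had the smallest p of the ring, with 8.78, 1.83, unlisted and 2.38 FPKM in the high fat libraries, against 15.2, 4.51, 10.96, 11.95 and 4.28 FPKM in the control libraries. High fat library 1 again lay among the control diet values (log2 fold change -1.59, SE 0.62, limma adjusted p = 0.0519). Psma2 had the largest p, with 37.8, 13.04, 4.78 and 13.4 FPKM in the high fat libraries, against 67.05, 15.01, 41.1, 58.2 and 22.1 FPKM in the control libraries (log2 fold change -1.31, SE 0.76, limma adjusted p = 0.1405). Control library 1 was the highest of all 9 for each of these 3 genes. Psma1 had 1.86 to 18.8 FPKM in 4 of 4 high fat libraries and 7.31 to 35.3 FPKM in 5 of 5 control libraries. Psma6 had 1.01 to 22.4 FPKM in 4 of 4 high fat libraries and 8.84 to 37.1 FPKM in 5 of 5 control libraries. Psma3 had 1.54 to 1.999 FPKM in 2 of 4 high fat libraries and 1.45 to 5.29 FPKM in 5 of 5 control libraries, its copies left out.

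The beta ring holds the catalytic sites, and its constitutive catalytic genes differed widely in level. None of the 7 tested genes passed, and 2 were lower by the unadjusted p, beside 49.5% of all tested genes. The median log2 fold change was -1.32, against -1.08 over all tested genes. Psmb6, the caspase-like subunit, was the most abundant, with 43.9, 40.6, 4.33 and 12.6 FPKM in the high fat libraries, against 72.5, 19.5, 50.9, 60.9 and 34.4 FPKM in the control libraries (log2 fold change -1.21, SE 0.79, limma adjusted p = 0.179). Both high fat libraries 1 and 2 exceeded control libraries 2 and 5. Psmb7, the trypsin-like subunit, had 23.4, 12.3, 1.89 and 6.904 FPKM in the high fat libraries, against 42.7, 9.71, 27.9, 36.7 and 14.2 FPKM in the control libraries (log2 fold change -1.36, SE 0.73, limma adjusted p = 0.115). Psmb5 had 8.04, 12.1, unlisted and 2.47 FPKM in the high fat libraries, against 17.5, 3.34, 12.1, 13.01 and 6.83 FPKM in the control libraries (log2 fold change -1.20, SE 0.65, limma adjusted p = 0.123). For Psmb5, high fat library 2 was the highest of its diet and control library 2 the lowest of its own, and the ranges overlapped.

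The non-catalytic beta subunits gave the same picture. Psmb3 had the smallest p of the ring, with 5.68, 1.27, unlisted and unlisted FPKM in the high fat libraries, against 5.29, 2.499, 2.86, 7.85 and 2.801 FPKM in the control libraries (log2 fold change -1.32, SE 0.55, limma adjusted p = 0.0622). Psmb1 had the largest, with 35.6, 29.97, 4.65 and 12.96 FPKM in the high fat libraries, against 67.7, 16.03, 42.8, 57.3 and 22.9 FPKM in the control libraries (log2 fold change -1.11, SE 0.77, limma adjusted p = 0.203). High fat diet libraries 1 and 2 lay inside the control range of Psmb1, whose direction turned under median-of-ratios scaling (log2 fold change 0.079) and quantile normalization (0.19). Psmb2 had 3.46 to 35.8 FPKM in 4 of 4 high fat libraries and 15.6 to 64.3 FPKM in 5 of 5 control libraries. Psmb4 had 2.58 to 23.01 FPKM in 4 of 4 high fat libraries and 13.8 to 44.3 FPKM in 5 of 5 control libraries. The diets overlapped for both genes.

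Of the immunoproteasome genes, Psmb8 and Psmb10 were listed in most libraries and Psmb9 in 3 of 9. Neither of the 2 that were tested passed the adjusted threshold. Both were lower by the unadjusted p, beside 49.5% of all tested genes. Psmb8 (chr17:34197721-34201454), which replaces Psmb5, had 11.2, 3.73, unlisted and 1.52 FPKM in the high fat libraries, against 10.1, 5.66, 10.8, 14.4 and 6.14 FPKM in the control libraries (log2 fold change -1.51, SE 0.63, limma adjusted p = 0.0615). High fat library 1 was the second highest of all 9, and library 3 had no row. Psmb10 (chr8:105935735-105938444), which replaces Psmb7, had 1.85, 6.39, 2.05 and unlisted FPKM in the high fat libraries, against 8.75, 3.72, 6.77, 5.58 and 3.899 FPKM in the control libraries (log2 fold change -1.20, SE 0.58, limma adjusted p = 0.0921). High fat library 2 lay within the control range, and the bounds of the library 3 value correspond to only 3.16 fragments. Psmb9 (chr17:34181988-34187764), which replaces Psmb6 and lies near Psmb8 in the MHC region, was listed at 1.497 FPKM in high fat library 1, against 3.20 FPKM in control library 1 and 2.02 FPKM in control library 4. It had no row in the other 6 libraries and was not tested.

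The level of an immunoproteasome gene over the gene it replaces does not move with the scale of a library. Whether a library gives a ratio does depend on its scale, since both genes must exceed 1 FPKM. Psmb8 over Psmb5 was 1.39, 0.309 and 0.615 in high fat libraries 1, 2 and 4, against 0.574, 1.70, 0.891, 1.11 and 0.898 in the control libraries. The mean log2 ratio was -0.64 ± 1.09 on the high fat diet and -0.04 ± 0.57 on the control diet (SD, n = 3 and 5), which did not pass the exact permutation test (difference -0.60, two-sided p = 0.357, adjusted over 2 ratios 0.571). With the copy Gm3375 added to Psmb5, an alternative chosen after seeing the data, this ratio was 0.494, 0.162 and 0.219 in those high fat libraries, against 0.231, 0.722, 0.381, 0.399 and 0.387 in the control libraries. Its mean log2 was then -1.94 ± 0.83 on the high fat diet and -1.33 ± 0.58 on the control diet (SD, n = 3 and 5; difference -0.61, exact permutation test, two-sided p = 0.286). Psmb10 over Psmb7 was 0.0792, 0.519 and 1.08 in high fat libraries 1, 2 and 3, against 0.205, 0.383, 0.242, 0.152 and 0.275 in the control libraries. The mean log2 ratio was -1.50 ± 1.95 on the high fat diet and -2.06 ± 0.50 on the control diet (SD, n = 3 and 5), which did not pass the exact permutation test either (difference 0.56, two-sided p = 0.571, adjusted 0.571). The smallest p that 3 against 5 libraries allow is 0.0179. The sign of the second difference rested on high fat library 3, without which it was -0.24. High fat library 4 gave no such ratio, since Psmb10 was unlisted there while Psmb7 was at 6.90 FPKM. With unlisted genes at 1 FPKM the second difference was 0.24. Psmb9 over Psmb6 could be formed in 1 high fat library, at 0.0341, and in 2 control libraries, at 0.0441 and 0.0332. The 3 immunoproteasome genes made up 16.2%, 13.5%, 24.8% and 6.44% of the summed FPKM of the 6 catalytic genes in the high fat libraries, against 14.2%, 22.4%, 16.2%, 16.6% and 15.3% in the control libraries. These shares count Psmb5 without Gm3375. With Gm3375 in the sum, also chosen after seeing the data, they were 13.9%, 11.8%, 21.3% and 5.42% in the high fat libraries, against 12.2%, 20.2%, 14.1%, 14.1% and 13.5% in the control libraries.

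Leukocytes are another source of immunoproteasome RNA, and their markers varied between libraries of the same diet. Of 12 leukocyte markers, 9, 3, 6 and 0 were listed in the high fat libraries, against 6, 3, 6, 5 and 4 in the control libraries. Their summed FPKM was 107, 4.43, 41.2 and 0 in the high fat libraries, against 24.3, 5.47, 17.1, 25.2 and 7.69 in the control libraries. Cd3e and Cd79a, which mark T and B cells, were unlisted in all 9 libraries, and Ptprc, the pan-leukocyte marker, was listed only in high fat library 1, at 1.45 FPKM. The granulocyte genes S100a8 and S100a9 reached 40.9 and 48.3 FPKM in high fat library 1, where Psmb8 over Psmb5 was also the highest of its diet. In that library Psmb10 over Psmb7 was 0.0792, the lowest of all libraries that list both. The highest Psmb8 over Psmb5 of either diet, 1.70, was that of control library 2, where 3 of 12 markers were listed and summed to 5.47 FPKM. Lyz2 and Cd74 reached 22.4 and 9.91 FPKM in high fat library 3, where Psmb8 and Psmb9 were unlisted and Psmb10 was listed at 2.05 FPKM. Psmb10 over Psmb7 was 1.08 in that library, the highest of all that list both. The immunoproteasome share of the catalytic genes, 24.8%, was also the highest there. In high fat library 4 all 12 markers were unlisted while Psmb8 was listed at 1.52 FPKM. The part of leukocyte RNA in the immunoproteasome levels was not tested.

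**Figure D4:**
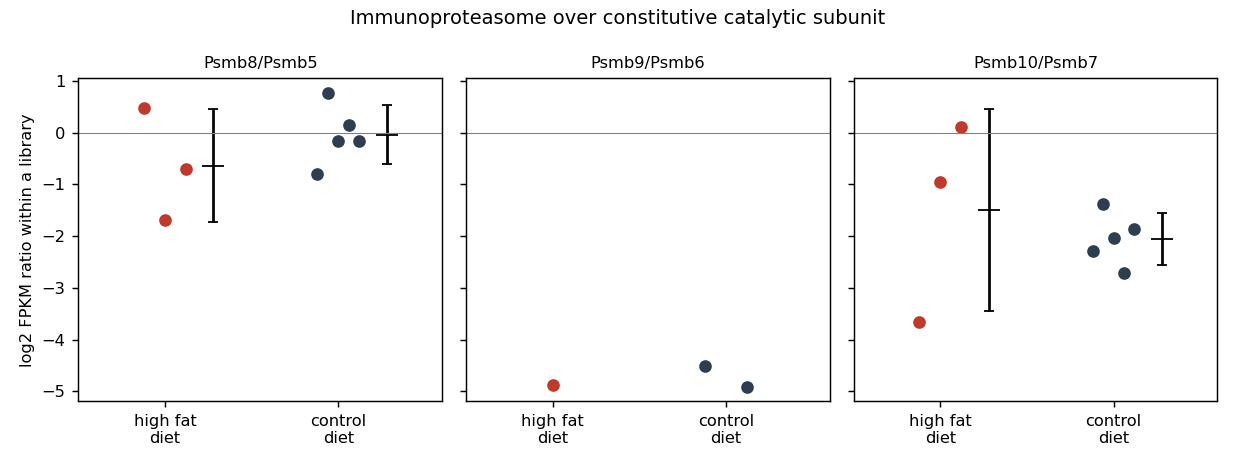
log2 ratio of each immunoproteasome gene to the constitutive gene it replaces, for the libraries that list both, high fat diet at the left and control diet at the right of each panel; points are libraries and bars are mean ± SD where 3 or more libraries gave a ratio. The means for Psmb8 over Psmb5 are -0.64 on the high fat diet and -0.04 on the control diet, and the points of the 2 diets overlap in both panels with a mean.

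Promoters of these genes were searched because Nfe2l1, a transcription factor that raises proteasome genes together when proteasome activity is short, binds antioxidant response elements. RefSeq promoters (GRCm38.p6) matched 41 of the 48 members, with 44 promoters, and the 250 bases before each start were searched on both strands. The letters TGANNNNGC, which the core of that element matches, were present in 38.6% of the members' promoters, against 35.2% of all 32851 promoters of this length. CCAAT was present in 31.8%, against 33.8% of all, and TTTCNNTTT, a part of the interferon-stimulated response element, in 9.09%, against 9.37%. GGCGG, a part of the GC box, was present in 84.1%, against 45.1%; the sets were not matched for base composition. The regions before the constitutive catalytic genes Psmb5 (chr14:54618023-54618245, minus strand) and Psmb6 (chr11:70525107-70525356, plus strand) are shown because each holds 1 match to TGANNNNGC near its start, in capitals:
Psmb5: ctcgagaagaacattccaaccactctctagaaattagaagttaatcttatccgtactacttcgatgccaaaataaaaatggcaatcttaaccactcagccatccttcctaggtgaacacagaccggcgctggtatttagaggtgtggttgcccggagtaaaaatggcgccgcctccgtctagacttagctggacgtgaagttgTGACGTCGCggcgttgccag
Psmb6: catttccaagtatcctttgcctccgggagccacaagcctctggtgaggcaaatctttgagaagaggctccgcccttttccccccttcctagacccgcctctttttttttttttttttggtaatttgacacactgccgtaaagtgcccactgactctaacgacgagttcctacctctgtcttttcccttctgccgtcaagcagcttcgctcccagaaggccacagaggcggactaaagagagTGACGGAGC

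The base binds and unfolds the substrate. Its 9 genes were all tested, and 0 passed the adjusted threshold. By the unadjusted p 5 were lower, beside 49.5% of all tested genes. The median log2 fold change was -1.40, against -1.08 over all tested genes. Among the ATPases, Psmc3 was the most abundant and had the largest p, with 19.7, 18.4, 2.31 and 6.14 FPKM in the high fat libraries, against 32.1, 10.01, 24.6, 29.8 and 14.7 FPKM in the control libraries (log2 fold change -1.12, SE 0.72, limma adjusted p = 0.173). High fat diet libraries 1 and 2 exceeded control libraries 2 and 5, and the direction turned under median-of-ratios scaling (log2 fold change 0.0042) and quantile normalization (0.093). Psmc1 had the smallest p, with 8.07, 5.59, unlisted and 2.66 FPKM in the high fat libraries, against 14.4, 5.95, 10.3, 15.4 and 7.04 FPKM in the control libraries (log2 fold change -1.51, SE 0.64, limma adjusted p = 0.0639). The other ATPases were listed in every library but for Psmc5 in high fat library 3. Psmc2 had 1.105 to 14.97 FPKM in 4 of 4 high fat libraries and 7.57 to 24.9 FPKM in 5 of 5 control libraries. Psmc4 had 1.93 to 14.9 FPKM in 4 of 4 high fat libraries and 8.65 to 29.7 FPKM in 5 of 5 control libraries. Psmc5 had 4.39 to 11.8 FPKM in 3 of 4 high fat libraries and 6.87 to 22.6 FPKM in 5 of 5 control libraries. For all 6 ATPases control library 2 was the lowest of its diet. Psmc6 had 2.25 to 18.1 FPKM in 4 of 4 high fat libraries and 9.63 to 33.5 FPKM in 5 of 5 control libraries.

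The non-ATPase subunits of the base include docking sites for ubiquitin and for shuttle proteins. Psmd4, a ubiquitin receptor, was the most abundant, with 18.5, 14.3, 2.33 and 5.36 FPKM in the high fat libraries, against 29.5, 10.6, 20.8, 25.95 and 18.04 FPKM in the control libraries (log2 fold change -1.23, SE 0.71, limma adjusted p = 0.138). Psmd1 (chr1:86064387-86139151) had 5.405, 4.96, unlisted and 2.91 FPKM in the high fat libraries, against 11.6, 5.41, 11.5, 12.97 and 8.55 FPKM in the control libraries. Its highest high fat diet value, 5.405, lay just under its lowest control diet value, 5.41, and the fit gave log2 fold change -1.60, SE 0.62, limma adjusted p = 0.0519. Psmd2, a docking platform for shuttle proteins, had 2.16 to 6.89 FPKM in 3 of 4 high fat libraries and 5.13 to 11.9 FPKM in 5 of 5 control libraries (log2 fold change -1.58, SE 0.62, limma adjusted p = 0.0543).

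The lid removes ubiquitin chains, and 1 of its 8 genes fell, beside a background of 20.8% of all tested genes. Psmd3 (ENSMUSG00000017221, chr11:98682554-98695979) had 7.78, 6.02, unlisted and 2.403 FPKM in the high fat libraries, against 14.2, 6.54, 14.998, 11.3 and 13.1 FPKM in the control libraries. High fat library 1 exceeded control library 2, so the diets overlapped in 1 pair of libraries, and the fall passed the threshold (log2 fold change -1.73, SE 0.64, limma adjusted p = 0.0462). The adjusted p of Psmd3 ran between 0.000664 and 0.998 over the alternatives, and the call was lost at a pseudocount of 0.5 and under every rescaling tried. Of the 8 lid genes, the other 7 did not pass, and 5 of the 8 were lower by the unadjusted p, beside 49.5% of all tested genes. The median log2 fold change of the lid was -1.31, against -1.08 over all tested genes. Psmd8 was the most abundant, with 35.8, 18.6, 3.69 and 10.4 FPKM in the high fat libraries, against 56.2, 24.4, 47.7, 57.2 and 43.1 FPKM in the control libraries (log2 fold change -1.68, SE 0.77, limma adjusted p = 0.0806). Psmd13 had the largest p, with 11.04, 15.6, unlisted and 4.65 FPKM in the high fat libraries, against 14.3, 4.48, 14.6, 14.7 and 7.48 FPKM in the control libraries (log2 fold change -0.95, SE 0.67, limma adjusted p = 0.208). High fat library 2 held the highest Psmd13 value of all 9, and the ranges of the diets overlapped. Psmd14, the metalloprotease that cuts the ubiquitin chain, had 1.05 to 9.22 FPKM in 4 of 4 high fat libraries and 4.298 to 18.6 FPKM in 5 of 5 control libraries (log2 fold change -1.17, SE 0.64, limma adjusted p = 0.122). Its partner Psmd7 had 3.84 to 9.33 FPKM in 3 of 4 high fat libraries and 4.68 to 14.2 FPKM in 5 of 5 control libraries. The remaining lid subunits are structural. Psmd6 had 1.33 to 11.8 FPKM in 4 of 4 high fat libraries and 4.46 to 20.01 FPKM in 5 of 5 control libraries. Psmd11 had 3.88 to 4.03 FPKM in 2 of 4 high fat libraries and 1.85 to 6.25 FPKM in 5 of 5 control libraries. Psmd12 had 1.65 to 9.21 FPKM in 4 of 4 high fat libraries and 5.38 to 17.8 FPKM in 5 of 5 control libraries.

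The assembly chaperones, which guide subunits together and leave the finished particle, were listed at single-digit FPKM. None of the 7 passed, and 2 were lower by the unadjusted p, beside 49.5% of all tested genes. Their median log2 fold change was -0.78, against -1.08 over all tested genes. Adding 1 before the log shrinks the fold changes of such low genes, and its part in this difference was not tested. Psmd5, a chaperone of the base, was the most abundant, with 4.03, 1.62, 1.42 and 2.35 FPKM in the high fat libraries, against 8.74, 2.48, 6.01, 7.08 and 2.83 FPKM in the control libraries (log2 fold change -0.88, SE 0.57, limma adjusted p = 0.172). Psmg4, a chaperone of the core, had the smallest p, with 6.23, 1.33, unlisted and unlisted FPKM in the high fat libraries, against 7.19, 1.004, 2.17, 5.73 and 4.31 FPKM in the control libraries (log2 fold change -1.15, SE 0.55, limma adjusted p = 0.0898). Psmd10, known as the oncoprotein gankyrin and a chaperone of the base, had the largest, with 2.73, 1.59, unlisted and unlisted FPKM in the high fat libraries, against 3.61, unlisted, 2.57, 3.06 and unlisted FPKM in the control libraries (log2 fold change -0.39, SE 0.49, limma adjusted p = 0.446). The control libraries 2 and 5 were as low as high fat libraries 3 and 4 for Psmd10, all being unlisted. Psmg1 and Psmg2 form a pair that builds the alpha ring. Psmg1 had 1.16 to 3.002 FPKM in 4 of 4 high fat libraries and 1.83 to 4.39 FPKM in 5 of 5 control libraries. Psmg2 had 1.28 to 2.18 FPKM in 2 of 4 high fat libraries and 1.09 to 2.58 FPKM in 5 of 5 control libraries. The diets overlapped for both. Psmg3, the partner of Psmg4, had 1.98 to 2.13 FPKM in 2 of 4 high fat libraries and 1.04 to 3.74 FPKM in 5 of 5 control libraries. Psmd9, a chaperone of the base, had 1.05 to 3.92 FPKM in 3 of 4 high fat libraries and 1.93 to 4.46 FPKM in 5 of 5 control libraries.

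The activators bind the ends of the core in place of the regulatory particle. Of the 4 genes tested in this group, 1 was called lower, the inhibitor Psmf1, beside 20.8% of all tested genes. Psmf1 (ENSMUSG00000032869, chr2:151715812-151744186) had 2.31, unlisted, unlisted and unlisted FPKM in the high fat libraries, against 3.26, 1.49, 3.399, 4.03 and 1.55 FPKM in the control libraries. It was listed in 1 of 4 high fat libraries and in all 5 control libraries, and high fat library 1 exceeded control libraries 2 and 5 (log2 fold change -1.41, SE 0.48, limma adjusted p = 0.0375). The call remained at a pseudocount of 0.5 and was lost at 0.1 and under every rescaling tried, with adjusted p between 0.00031 and 0.993 over the alternatives. Psme1, the alpha subunit of the interferon-inducible activator, had 9.47, 9.64, 1.26 and 3.78 FPKM in the high fat libraries, against 13.6, 4.96, 8.904, 14.7 and 5.69 FPKM in the control libraries. It had the largest p of the group (log2 fold change -0.73, SE 0.64, limma adjusted p = 0.291) and turned positive under median-of-ratios scaling (log2 fold change 0.29) and quantile normalization (0.44). Its partner Psme2 was not tested, and its copy Psme2b, which holds nearly all of their shared level, did not pass (log2 fold change -1.18, SE 0.73, limma adjusted p = 0.158). The nuclear activators Psme3 and Psme4 did not pass. Psme3 had 1.097 to 4.04 FPKM in 4 of 4 high fat libraries and 3.602 to 8.29 FPKM in 5 of 5 control libraries. Psme4 had 2.93 to 5.88 FPKM in 3 of 4 high fat libraries and 5.04 to 11.9 FPKM in 5 of 5 control libraries (log2 fold change -1.57, SE 0.61, limma adjusted p = 0.0533). Psmc3ip had 1.28 FPKM in 1 of 4 high fat libraries and 1.82 FPKM in 1 of 5 control libraries and was not tested.

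Core, base and lid kept their order in every library. The median core gene exceeded the median base gene, and the median base gene exceeded the median lid gene, in all 9. The medians of the lid were 9.28, 6.12, 0.526 and 3.44 FPKM in the high fat libraries, against 16.1, 4.58, 14.6, 14.7 and 8.54 FPKM in the control libraries. Those of the base were 14.9, 11.8, 1.10 and 4.54 FPKM in the high fat libraries, against 24.9, 7.57, 18.1, 21.01 and 11.2 FPKM in the control libraries. The median core gene was 2.45, 1.99, 3.57 and 1.86 times the median lid gene in the high fat libraries, against 2.48, 2.03, 1.87, 2.39 and 1.91 times in the control libraries. The highest of these ratios belongs to high fat library 3, where the median lid gene lies between a listed and an unlisted gene, and the other 8 overlap between diets. By fold change, the medians were -1.32 for the core, -1.40 for the base, -1.31 for the lid and -1.36 for the immunoproteasome genes. The median over all tested genes was -1.08. In that order, 0 of 13, 0 of 9, 1 of 8 and 0 of 2 genes were called, beside 20.8% of all tested genes.

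The relative levels of single subunits were compared within each library over the 23 genes listed in all 9, as log2 of a gene over the median of these genes. Psma7 and Psmb6 stood near the top, with means of 1.14 ± 0.27 and 1.31 ± 0.27 on the high fat diet and 1.23 ± 0.15 and 1.10 ± 0.07 on the control diet (SD, n = 4 and 5). Psmg1 stood at the bottom, at -1.88 ± 0.89 on the high fat diet and -2.59 ± 0.27 on the control diet. Psmb4 varied least, with an SD over the 9 libraries of 0.125, followed by Psmd14 at 0.128 and Psmb7 at 0.169. Psmd5 varied most at 0.707, followed by Psmg1 at 0.688 and Psmb2 at 0.576. In high fat library 3 the median of these genes was 1.89 FPKM, so the limit of 1 FPKM bars low relative levels there. Psmd5 and Psmg1 were listed there at 1.42 and 1.16 FPKM, at relative levels of -0.41 and -0.70, their highest of all 9 libraries. The part of this limit in their spread was not tested. The diets overlapped for all 23 genes; among all 1847 genes listed in every library, 0.162% had all high fat diet values below the control diet values on this scale and 9.15% had them all above. Psmb2 stood out in 1 library: relative to the median it was 0.93, -0.83, 0.87 and 0.75 in the high fat libraries, against 0.94, 0.70, 0.89, 1.00 and 0.44 in the control libraries. In high fat library 2, Psmb2 was listed at 6.97 FPKM while the beta subunit gene Psmb1 was listed at 29.97 FPKM. Psma6 was 0.25, 0.73, -0.90 and 0 in the high fat libraries, against 0.15, -0.12, 0.18, 0.21 and -0.02 in the control libraries. The low value is that of high fat library 3, whose Psma6 bounds correspond to 3.58 fragments. Mean absolute deviations from each gene's median over the other libraries were 0.134, 0.499, 0.438 and 0.210 in the high fat libraries, against 0.140, 0.180, 0.140, 0.120 and 0.224 in the control libraries. High fat diet libraries 2 and 3 thus departed most from the common subunit profile. These libraries also had the smallest medians of implied fragments per gene. The parts of sampling noise and of the limit of 1 FPKM in this departure were not tested.

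**Figure D5:**
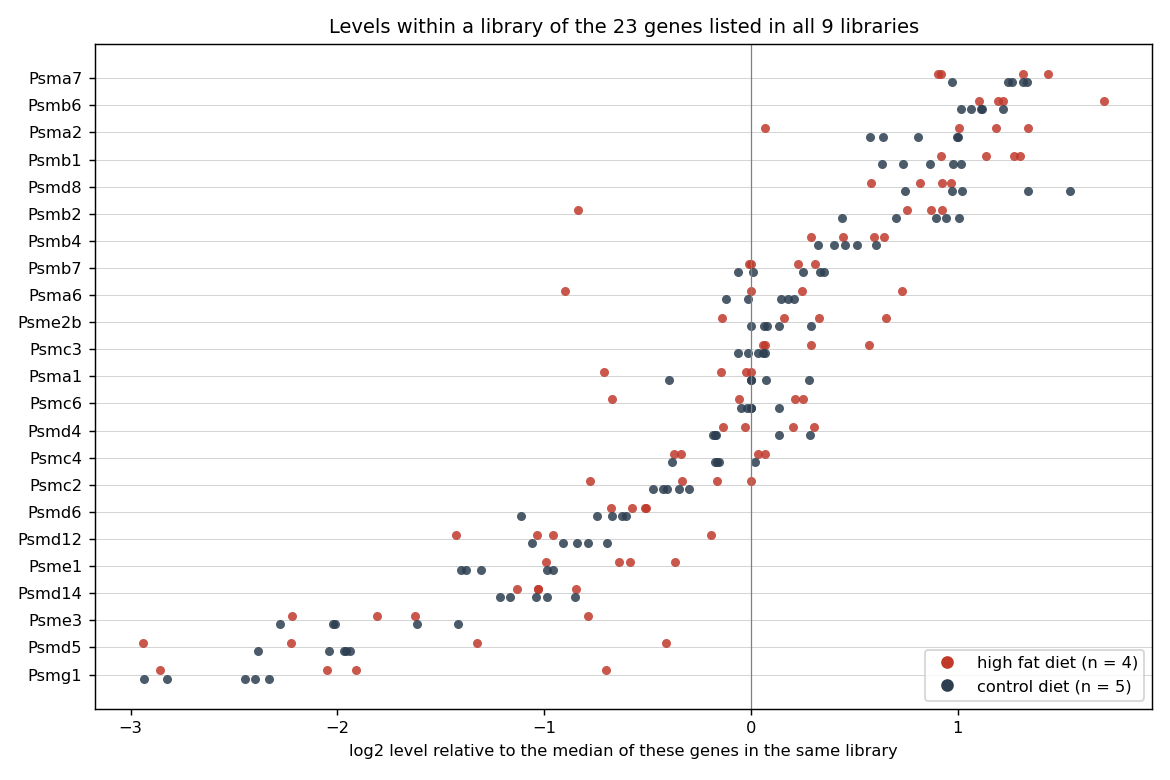
log2 level of the 23 proteasome genes listed in all 9 libraries relative to the median of these genes in the same library; points are libraries, high fat diet above control diet in each row. Rows are ordered by median level, the diets overlap in all 23, and the widest rows are Psmd5, Psmg1 and Psmb2. The limit of 1 FPKM bars low relative levels in high fat library 3, where the median of these genes is 1.89 FPKM.

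The wider pathway was read from a list of 42 genes that act with the proteasome: regulators, subunits without a Psm name and bound factors, ubiquitin shuttles, ubiquitin genes with their activating enzymes, and peptide presentation genes. Of these 38 were listed and 37 tested; 12 were lower, and 0 were higher by the adjusted or the unadjusted p, beside a background of 20.8% of all genes lower. The median log2 fold change was -1.35, against -1.08 over all tested genes. The diets did not overlap for 4 of the 37 tested, beside 11.1% of all tested genes. The 12 calls rest on the deposited scale: 0 were called under median-of-ratios scaling, quantile normalization or a common sum, and 1 was called with unlisted genes at 1 FPKM. Without high fat library 1, 31 of these genes were called; without library 2 or 3 of that diet or control library 3 or 5, none.

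Of the regulators, 3 of 6 tested were lower, beside 20.8% of all tested genes. Ddi2, the protease that activates Nfe2l1, had 2.8999, unlisted, unlisted and 2.81 FPKM in the high fat libraries, against 3.12, 4.13, 5.32, 4.403 and 6.05 FPKM in the control libraries, with no overlap of the diets (log2 fold change -1.49, SE 0.54, limma adjusted p = 0.0439). Akirin2, which brings proteasomes into the nucleus, had 2.09, unlisted, unlisted and 1.25 FPKM in the high fat libraries, against 3.21, 2.06, 4.38, 4.16 and 4.83 FPKM in the control libraries (log2 fold change -1.51, SE 0.51, limma adjusted p = 0.0372). Nfe2l1 itself had 8.101, 1.91, unlisted and 4.03 FPKM in the high fat libraries, against 5.12, 6.303, 10.5, 6.09 and 29.2 FPKM in the control libraries (log2 fold change -1.58, SE 0.63, limma adjusted p = 0.0558). Control library 5 held by far its highest value, and 3 of 4 high fat libraries lay below the lowest control diet value. Ngly1, which strips sugars from Nfe2l1, had 1.75 to 3.38 FPKM in 3 of 4 high fat libraries and 2.05 to 5.596 FPKM in 5 of 5 control libraries. Irf1, a transcription factor of the interferon response, had 1.11 to 1.66 FPKM in 2 of 4 high fat libraries and 1.002 to 3.18 FPKM in 5 of 5 control libraries. Nlrc5 was unlisted throughout.

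Among the bound factors, 5 of 12 tested were lower, beside 20.8% of all tested genes. Adrm1, a ubiquitin receptor of the base, had 2.91, 3.52, unlisted and unlisted FPKM in the high fat libraries, against 3.87, 3.04, 7.11, 5.18 and 7.64 FPKM in the control libraries (log2 fold change -1.58, SE 0.56, limma adjusted p = 0.0412). Zfand5, a stimulator of the proteasome, had 7.63, 1.73, unlisted and 2.33 FPKM in the high fat libraries, against 9.39995, 7.31, 10.2, 12.9 and 15.4 FPKM in the control libraries (log2 fold change -1.98, SE 0.62, limma adjusted p = 0.0311). Its relative Zfand2a, known to be induced by arsenite, had 3.35, unlisted, unlisted and 2.62 FPKM in the high fat libraries, against 2.61, 9.403, 12.6, 6.42 and 21.8 FPKM in the control libraries (log2 fold change -2.28, SE 0.60, limma adjusted p = 0.0172). Fbxo7, a partner of Psmf1, was unlisted in all 4 high fat libraries, against 1.33, 1.16, 1.44, 1.06 and 1.302 FPKM in the control libraries (log2 fold change -1.17, SE 0.40, limma adjusted p = 0.0365). Its control diet values lay just above the limit of 1 FPKM, and their bounds correspond to 2.13 to 7.72 fragments. All 4 high fat values in the fit are the 0 given to unlisted genes, so this call rests on that limit. Ipo9, an importin that carries proteasomes into the nucleus, had 1.53, 1.32, unlisted and unlisted FPKM in the high fat libraries, against 3.58, 2.52, 5.14, 1.84 and 3.21 FPKM in the control libraries, with no overlap (log2 fold change -1.40, SE 0.50, limma adjusted p = 0.0416). The maturation factor Pomp, which completes the core, had 31.1, 19.1, 1.06 and 10.3 FPKM in the high fat libraries, against 56.8, 15.02, 30.6, 41.5 and 14.8 FPKM in the control libraries (log2 fold change -1.38, SE 0.76, limma adjusted p = 0.123). Sem1, a small lid subunit, had 10.2, 14.4, 2.12 and 3.69 FPKM in the high fat libraries, against 15.6, 3.78, 9.67, 12.2 and 8.71 FPKM in the control libraries (log2 fold change -0.52, SE 0.65, limma adjusted p = 0.452), and turned positive under median-of-ratios scaling (0.56), quantile normalization (0.67) and a common sum (0.10).

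Of the shuttles, 2 of 11 tested were lower, beside 20.8% of all tested genes. Ubqln4, which delivers ubiquitinated proteins, had 1.44, unlisted, unlisted and unlisted FPKM in the high fat libraries, against 2.11, 1.15, 2.66, 2.53 and 1.66 FPKM in the control libraries (log2 fold change -1.25, SE 0.45, limma adjusted p = 0.04301). Nploc4, a cofactor of the Vcp segregase, had 2.29, 1.26, unlisted and 1.69 FPKM in the high fat libraries, against 3.596, 3.45, 6.07, 4.75 and 8.95 FPKM in the control libraries (log2 fold change -1.52, SE 0.55, limma adjusted p = 0.0426). The diets did not overlap for Nploc4 and overlapped for Ubqln4. Of the ubiquitin genes and activating enzymes, 1 of 6 was lower, beside the same 20.8% of all tested genes. Of the 2 peptide presentation genes tested, Tapbp, which loads peptides on MHC class I, was lower. Tapbp had 4.69, unlisted, unlisted and unlisted FPKM in the high fat libraries, against 1.21, 5.705, 6.13, 4.35 and 11.8 FPKM in the control libraries (log2 fold change -1.94, SE 0.55, limma adjusted p = 0.0244). B2m, the light chain of MHC class I, had 1.46 to 23.1 FPKM in 4 of 4 high fat libraries and 9.28 to 30.2 FPKM in 5 of 5 control libraries and did not pass (log2 fold change -1.41, SE 0.71, limma adjusted p = 0.0988). Tap1, the peptide transporter gene next to Psmb9, and Erap1 were unlisted in all 9 libraries.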

How the data were processed

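Milk fat RNA of 9 dams was sequenced from stranded libraries. Per the file headers, each library's deposited table gives the authors' FPKM for a gene with confidence bounds in the form of Cufflinks. Other tools in the submitters' processing notes are Trimmomatic, FastQC, TopHat, Bowtie2, DESeq2 and HTSeq. The build and strand setting are not stated in the sources used. The tables hold no counts and no gene at or below 1 FPKM, so read depth is unknown. Fragments behind an FPKM were approximated as the square of FPKM over its SD, with the upper bound taken as FPKM plus 2 SD; they cover counting error only. Coordinates are those of the tables, 1-based; the bounds of 39 of 48 members equal GENCODE M21 (GRCm38).

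Repeated rows of a gene were reduced to the highest FPKM, and 2 blank rows and 26 stray cells were dropped. High fat diet (n = 4) was compared with control diet (n = 5) by limma 3.58.1 in R 4.3.3, with trend, on log2(FPKM + 1), for genes with at least 1 FPKM in at least 4 libraries, unlisted genes at 0, adjusted p threshold 0.05, two-sided; fold changes on this scale understate those of low genes. P-values set the diet difference against the spread between libraries, 1 per dam. That spread does not separate dams from library quality. Ratios of 2 genes within a library were tested by exact permutation (SciPy 1.17.1). Copies were found with BLAST 2.17.0 among GENCODE M21 transcripts. The members and lists were chosen with earlier results of these data known. By the rule for named genes, values in every library are given for catalytic genes, Psme1, Psme2, the most abundant member and those of smallest and largest p in each role, members called or without overlap, associated genes called (except 2 that are not reported here, though counted), and Nfe2l1, Adrm1, Pomp and Sem1; copies and library checks were named after their values were seen.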

Additional observations from a re-analysis of the deposited data

Results flagged for a closer look

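Nfe2l1, the transcription factor that raises proteasome genes, was listed at 8.10, 1.91 and 4.03 FPKM in high fat libraries 1, 2 and 4 and had no row in library 3, against 5.12, 6.30, 10.5, 6.09 and 29.2 FPKM in the control libraries. Control library 5 was far from the others of its diet: its gap to the next highest value was 0.778 of the whole range, above the critical value of 0.71 for 5 samples. It was the only such value among the 50 groups of libraries examined for outlying values, and chance marks about 1 group in 20. The proteasome members summed to 495 FPKM in control library 5, against 315 to 1053 FPKM in the other control libraries.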

How the results depend on the processing

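The main limits are the few listed genes and low implied precision of high fat library 3, the loss of every gene at or below 1 FPKM, and calls that follow the scale of whole libraries. The number of listed genes moved with diet, at 2075 to 7974 in the high fat libraries and 7098 to 8903 in the control libraries. Of all genes tested, 1662 were lower and 0 higher; of the members 2 were lower, and of the 42 associated genes 12. The lower counts of genes, members and associated genes, in that order, were 145, 0 and 1 at a pseudocount of 0.1, and 87, 0 and 1 with unlisted genes at 1 FPKM. They were 15, 0 and 0 among the genes listed in all 9 libraries, 13, 0 and 0 with no filter, and 20, 0 and 0 with libraries scaled to 1 sum. They were 0, 0 and 0 under median-of-ratios scaling, under quantile normalization, with a covariate for the number of listed genes, without high fat libraries 2 and 3, and without high fat library 3 and control library 2, the last chosen after seeing the data. Library weights gave 6714, 43 and 35 lower, with 13 genes higher. A pseudocount of 0.5 left 1 member, Psmf1. Adding copies, also chosen after seeing the data, gave 4 members. Leaving out 1 library at a time gave 16 to 5215 genes lower and 0 to 4 higher, with 0 to 30 members and 0 to 31 associated genes lower. The members' median minus that of all genes, -0.21, was 0.43 at a pseudocount of 0.1, 0.24 under median-of-ratios scaling, 0.23 with the covariate and 0.054 with 1 sum.

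Log2 Psmb9/Psmb6 differed between the diets by -0.17, by 0.90 with unlisted genes at 1 FPKM, by 0.80 with 1 added to both values, and by -0.37 to 0.037 with 1 library left out. Log2 Psmb10/Psmb7 differed by 0.56, by 0.24 with unlisted genes at 1 FPKM and by 0.17 with 1 added to both values. It differed by -0.24 to 1.64 with 1 library left out, the lowest without high fat library 3. Without high fat libraries 2 and 3 the difference was -1.60. Log2 Psmb8/Psmb5 remained negative in all alternatives, at -1.16 to -0.07 with 1 library left out.

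Replicate numbers are shared by the labels of both diets but did not pair the libraries: same-numbered libraries correlated in their deviations from the diet means at 0.142, -0.285, 0.0431 and -0.0882. With a replicate block, 29 genes were lower and 4 higher, and 0 members and 0 associated genes were lower.

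Some single genes turned positive in log2 fold change, and the cause was not tested. Under quantile normalization these were Psmb6 at 0.076, Psmb10 at 0.060, Psme1 at 0.44, Psmb1 at 0.19, Psmc3 at 0.093, Psmd13 at 0.057, Psmd5 at 0.30, Psmd10 at 0.46, Psme2b at 0.0042, Fbxo7 at 0.17 and Sem1 at 0.67. Under median-of-ratios scaling they were Psme1 at 0.29, Psmb1 at 0.079, Psmc3 at 0.0042, Psmd5 at 0.11 and Sem1 at 0.56, and with 1 sum Sem1 at 0.10. With the covariate they were Psmb5 at 0.75, Psmb6 at 0.65, Psmb7 at 0.49, Psmb8 at 0.47, Psme1 at 0.57, Psma7 at 0.36, Psma4 at 0.25, Psma2 at 0.36, Psmb3 at 0.18, Psmb1 at 0.55, Psmc3 at 0.48, Psmc1 at 0.27, Psmd4 at 0.29, Psmd8 at 0.045, Psmd3 at 0.075, Psmd13 at 1.17, Psmg4 at 0.57, Psmd10 at 0.88, Psme2b at 0.57, Nfe2l1 at 0.19, Pomp at 0.82 and Sem1 at 0.71.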
